A study of Mus musculus with 3 samples.

Results

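Caspases are cysteine proteases that cut proteins after aspartate residues, and most are made as inactive precursors. The 6 mouse caspase genes described here are Casp1 and Casp4 of the inflammatory branch, the apoptotic initiators Casp2, Casp8 and Casp9, and the executioner Casp6. They were taken as a gene family, and the set was chosen by measured values of these same arrays, namely the ratios of each culture to naive cells and the channel levels, so those values are given as a description with no test. The 6 genes were represented by 7 of the 39429 probes on the array, 1 for each gene and 2 for Casp4, and were 6 of 19751 genes that could be named from the probes' accessions. All 7 probes were well above background in both channels on all 3 arrays, so every member has a measured value everywhere. Casp12, a family member outside the chosen set, appears below only with the pathway lists.

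RNA of naive mouse CD4 T cells was compared on 2-colour oligonucleotide arrays with RNA of 3 helper T cell cultures. Naive cells were purified by magnetic sorting, with the spleen of 6 to 8 week old C57BL/6 mice as the source. All 3 cultures were stimulated for 3 days with plate-bound antibodies to CD3e and CD28, each at 10 µg/ml. The Th2 culture held IL-2 at 1 ng/ml, IL-4 at 5 ng/ml and an antibody to interferon gamma at 2 µg/ml. The Th9 culture held IL-2 at 0.2 ng/ml, IL-4 at 1 ng/ml, human TGF-β1 at 2 ng/ml and the interferon gamma antibody at 5 µg/ml. The iTreg culture, of induced regulatory T cells, held IL-2 at 0.4 ng/ml, TGF-β1 at 5 ng/ml, and antibodies to interferon gamma and IL-4 at 5 µg/ml each. No culture was activated without polarising cytokines, so a ratio to naive cells holds activation, culture and polarisation together. Each array carried 1 culture in the red Cy5 channel and naive cells in the green Cy3 channel, with 1 array per culture and all 3 arrays on 1 slide. There is therefore no replicate of any culture and no p-value in what follows, and it is not stated if 1 naive RNA extract served all 3 green channels. The dyes were not swapped, so a dye effect of a probe cannot be told apart from a difference between culture and naive cells, whereas it cancels between cultures.

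In T cells, caspases carry out programmed death in 2 forms. Casp8 is the initiator at death receptors such as Fas, Casp9 is activated by cytochrome c and Apaf1, and Casp2 by the PIDDosome, a complex of Pidd1 and Cradd. Executioner caspases then cut nuclear and cytoskeletal proteins. Casp1 is activated by inflammasomes and matures interleukin-1β and interleukin-18, and Casp4, whose mouse product is also called caspase-11, is activated by cytosolic lipopolysaccharide. Both inflammatory caspases cut gasdermin D, which opens pores in the cell membrane.

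Casp1 and Casp4 are next to each other on chromosome 9, followed by Casp12. Casp2 is on chromosome 6, Casp6 on chromosome 3, Casp8 on chromosome 1 beside Cflar, which encodes its non-catalytic relative and regulator c-FLIP, and Casp9 on chromosome 4. Promoter sequence, here the 250 bases before the start of transcription, came from RefSeq on the build GRCm38.p6. It is printed for Casp1 and Casp4, the chromosomal neighbours whose ratios had opposite signs in Th2, and for Casp6, the other member that was at least 2-fold higher in Th2. Capitals mark matches to the NF-kB consensus, the binding motif of a factor activated by T cell receptor signalling. The windows are on the plus strand at chr9:5298267-5298516 for Casp1, chr9:5308599-5308848 for Casp4 and chr3:129901165-129901414 for Casp6.
Casp1: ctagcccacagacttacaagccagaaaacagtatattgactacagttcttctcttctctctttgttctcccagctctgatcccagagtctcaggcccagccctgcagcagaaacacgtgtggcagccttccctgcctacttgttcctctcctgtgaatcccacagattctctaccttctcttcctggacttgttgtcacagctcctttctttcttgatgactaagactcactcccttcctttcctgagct
Casp4: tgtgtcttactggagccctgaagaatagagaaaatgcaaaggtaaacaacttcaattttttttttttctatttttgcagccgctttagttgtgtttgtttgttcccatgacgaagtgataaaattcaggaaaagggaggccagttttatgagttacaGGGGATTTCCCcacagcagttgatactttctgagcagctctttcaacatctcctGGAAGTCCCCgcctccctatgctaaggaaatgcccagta
Casp6: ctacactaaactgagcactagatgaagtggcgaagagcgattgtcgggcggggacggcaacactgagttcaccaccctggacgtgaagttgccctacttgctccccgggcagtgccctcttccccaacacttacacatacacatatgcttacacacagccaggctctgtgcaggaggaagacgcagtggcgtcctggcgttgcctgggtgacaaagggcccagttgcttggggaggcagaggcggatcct

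A set of 4 motifs was searched on both strands in the 7 promoter windows of the 6 genes, Casp4 having 2 annotated starts close together. They were the core of the interferon-stimulated response element (GAAA, any 2 bases, GAAA), the gamma-activated sequence TTCNNNGAA, the STAT6 element (TTC, any 4 bases, GAA) and the NF-kB consensus. The last pair was added after the sequences had been seen. Among 32851 mouse promoter windows of the same length, 2.98% held the response element core, 7.02% the gamma-activated sequence, 5.85% the STAT6 element and 7.25% the NF-kB consensus. Of the 6 genes, Casp4 alone held any of these motifs in its windows. The Casp4 window held the NF-kB consensus at 2 places. At the first, GGGGATTTCC and GGGATTTCCC overlap, lying 93 to 84 and 92 to 83 bases before the start, and the second of these reads as a match on both strands. The other match, GGAAGTCCCC on the minus strand, lay 39 to 30 bases before the start. A match is a stretch of letters, and no binding was measured. The windows of Casp1, Casp4 and Casp6 were 49.2%, 41.6% and 58.4% G and C, against a median of 52.4% over all windows.

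Levels are given as log2 channel intensity after normalization, and the spread of the naive level is over the 3 green channels. These repeated closely for the caspase probes, with SDs from 0.0181 to 0.0791. Over all probes above background, the median SD of the 3 naive channels was 0.0509 and that of the 3 culture channels was 0.246. The labels were borne out by the genes that mark each culture: Il4 had a log2 ratio to naive of 5.08 in Th2, Il9 one of 6.52 in Th9, and Foxp3 one of 3.49 in iTreg. These genes were not confined to 1 culture. Il9 was at 2.64 or more in Th2, and in Th9 Il4 was at 1.04 and Foxp3 at 1.28. Of the other markers on that list, Gata3, Il5 and Il13 were at least 2-fold higher in both Th2 and Th9. Il2ra was higher in all 3 cultures, at 2.33, 2.57 and 3.91 in Th2, Th9 and iTreg.

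Casp4 stood highest in Th2 and lowest in Th9. Its naive level was 9.39, 9.37 and 9.35 on the Th2, Th9 and iTreg arrays (mean 9.37 ± 0.0211, SD, n = 3 channels). Its level was 11.34 in Th2, 8.33 in Th9 and 9.57 in iTreg. Thus Th2 lay above all 3 naive channels, Th9 lay below all of them, and iTreg lay just above them. The second Casp4 probe gave naive levels of 9.14, 9.02 and 8.98, and levels of 10.89 in Th2, 8.03 in Th9 and 9.17 in iTreg. Both probes therefore placed the samples in the order Th2, iTreg, naive and Th9, with iTreg and naive closest.

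Casp1 was lower in every culture than in naive cells. Its naive level was 9.35, 9.40 and 9.48 on the Th2, Th9 and iTreg arrays (mean 9.41 ± 0.0661, SD, n = 3 channels). Its level was 8.54 in Th2, 6.97 in Th9 and 8.02 in iTreg, so no culture reached the naive range and Th9 was the lowest. Before any normalization, the Th9 spot had a median signal of 111 over a local background of 44, against 404 over 55 in Th2 and 234 over 47 in iTreg. Casp1 in Th9 was thus the dimmest caspase measurement. Of the caspase ratios to naive it also ranged most over the processing alternatives, from -3.75 to -2.24.

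The initiators varied less. Casp2 had naive levels of 13.40, 13.42 and 13.38, and levels of 12.83 in Th2, 13.03 in Th9 and 13.32 in iTreg. Casp8 had naive levels of 12.53, 12.57 and 12.49, and levels of 12.19 in Th2, 11.96 in Th9 and 12.10 in iTreg. Casp9 had naive levels of 10.59, 10.64 and 10.64, and levels of 10.37 in Th2, 10.10 in Th9 and 10.12 in iTreg. For these genes each culture lay below its naive channels under this normalization, by less than 2-fold.

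Casp6 was the executioner of the set. Its naive level was 10.81, 10.79 and 10.77 (mean 10.79 ± 0.0181, SD, n = 3 channels), and its level was 12.00 in Th2, 10.97 in Th9 and 11.07 in iTreg. Th2 stood well above the others, and Th9 and iTreg lay close together just above the naive channels.

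**Figure D1:**
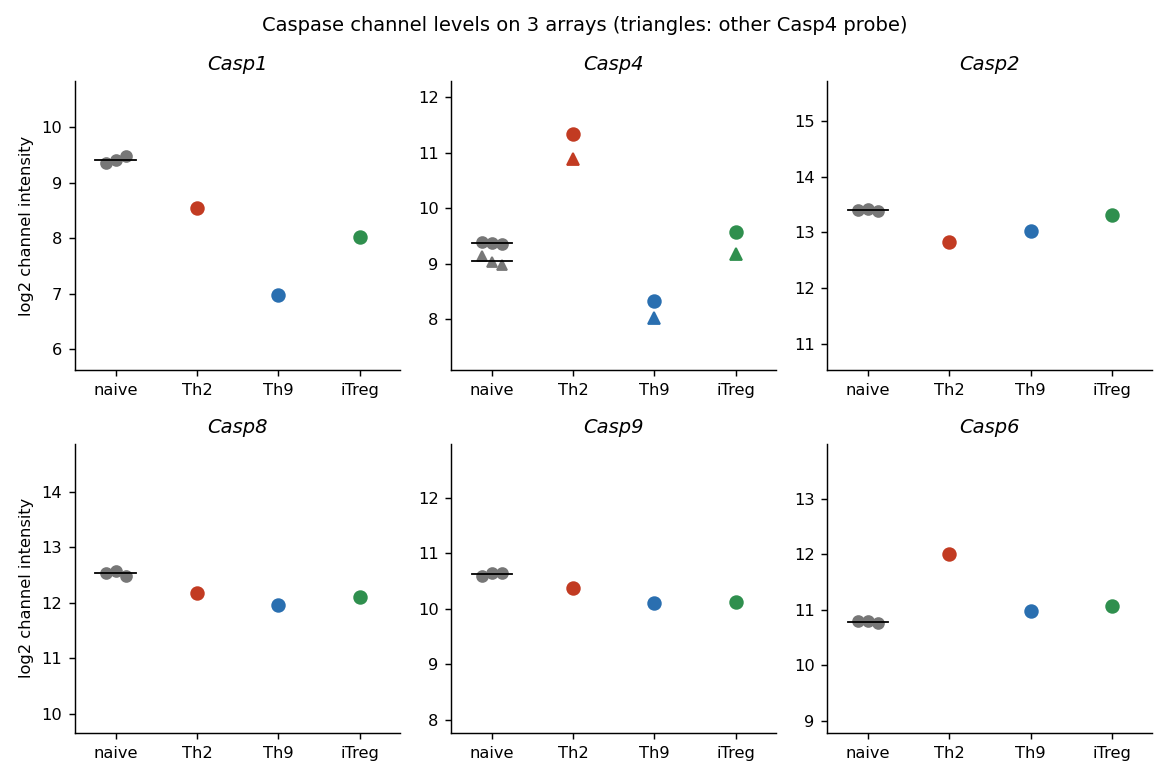
Normalized log2 channel intensity (vertical axis) of the 6 caspase genes in naive cells, Th2, Th9 and iTreg; each point is 1 array channel, the line is the mean of the 3 naive channels, and triangles are the second Casp4 probe. Panels have their own range but the same height per log2 unit. Casp4 is at 11.34 in Th2 and 8.33 in Th9, and Casp1 has a naive mean of 9.41 and lies at 6.97 in Th9.

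Against naive cells, Casp4 and Casp6 were the caspases that were higher in Th2, and Casp1 and Casp4 the ones that were lower in Th9. A log2 ratio compares the culture with the naive channel of the same array, and a difference counts here when it is at least 2-fold. Its error is the one the scanner software gives the spot. That error belongs to the software's own processed ratio and was not recomputed for the ratio printed here. The 2 ratios can differ by more than the error, as for Casp1 in Th9, where the software's was -3.75. Statements of within or beyond error are therefore a rough guide. In Th2 the log2 ratio of Casp4 was 1.95 ± 0.27, which is 3.85-fold higher, and that of Casp6 was 1.20 ± 0.23, which is 2.29-fold higher. Casp1 was 1.75-fold lower in Th2, at -0.80 ± 0.23. So 2 of 6 caspases were at least 2-fold higher and 0 lower, where 14.8% of 10940 measured genes were higher and 14.5% lower. Centring each array on its median in place of the intensity-dependent correction changed that split to 25.4% higher and 7.4% lower, and no normalization changed it to 24.5% and 7.84%. Casp4 was the 642nd and Casp6 the 1311th highest of those genes. Since measured ratios chose the set, nothing is read from its counts against these shares.

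In Th9, Casp1 had a log2 ratio of -2.43 ± 0.41, which is 5.39-fold lower, and was the 208th lowest of 10775 measured genes. Casp4 had -1.04 ± 0.24, which is 2.05-fold lower, and its second probe -0.99 ± 0.24, on the other side of the 2-fold line. Casp6 was at 0.18 ± 0.20, within its error. The initiators Casp2, Casp8 and Casp9 were at -0.39 ± 0.21, -0.61 ± 0.21 and -0.54 ± 0.21. That made 0 caspases higher and 2 lower in Th9, where 15.5% of measured genes were higher and 15.6% lower. Median centring changed that split to 21.5% and 11.4%, and no normalization to 26.3% and 8.32%, and without normalization Casp4 was at -0.82 and only Casp1 counted.

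In iTreg, Casp1 was the 1 caspase past 2-fold, with a log2 ratio of -1.46 ± 0.28, which is 2.75-fold lower. Casp4 was at 0.22 ± 0.21, barely beyond its error, and at -0.06 with median centring, so its direction in iTreg was not settled. Casp6 was at 0.30 ± 0.21, and Casp2, Casp8 and Casp9 at -0.06 ± 0.20, -0.39 ± 0.21 and -0.52 ± 0.21. The count was 0 higher and 1 lower, where 10.2% of 11111 measured genes were higher and 8.14% lower. That split was 8.17% and 12.0% with median centring and 17.1% and 3.81% without normalization.

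No caspase of the set was at least 2-fold higher, or lower, on all 3 arrays, which 7.29% and 6.01% of the 10343 genes measured on all of them were. Casp1 came nearest, and was lower on all 3 arrays when the scanner software's processed signals or the deposited series values were used, with -1.06 in Th2 for the former. The 3 ratios share the naive cells as control, so they stand side by side and their likeness is not a result.

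Some of the initiators' signs against naive cells depended on the scaling, those of Casp2 in every culture and those of Casp8 and Casp9 in Th2. In Th9 and iTreg, Casp8 stayed below 0 in every alternative but came as near as -0.0084 and -0.0005. Casp9 stayed below 0 there too, with its nearest values at -0.2097 and -0.2753. With median centring, Casp2 was at 0.26 in Th2 and 0.23 in Th9, Casp8 at 0.32 in Th2 and Casp9 at 0.16 in Th2, all opposite to the values above, while the median over all measured genes moved by 0.35 in Th2, 0.18 in Th9 and -0.16 in iTreg. No alternative put an initiator 2-fold from naive in any culture. Casp1 and Casp6 kept their signs against naive in every alternative, as did Casp4 in Th2 and Th9. Casp4 in Th2 ranged from 1.85 to 2.31, Casp6 in Th2 from 1.19 to 1.69, and Casp1 in Th9 from -3.75 with the processed signals to -2.24 without normalization.

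**Figure D2:**
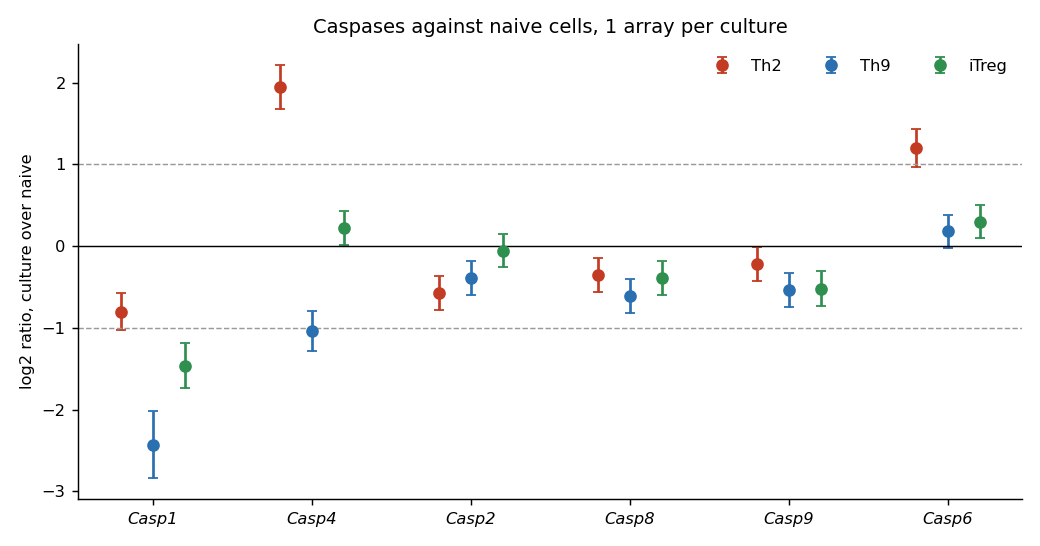
Log2 ratio of each culture over naive cells (vertical axis) for the 6 caspases, 1 array per culture; bars are the scanner software's error of the spot and dashed lines mark 2-fold. Casp4 is at 1.95 in Th2 and -1.04 in Th9, and Casp1 reaches -2.43 in Th9.

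**Figure D3:**
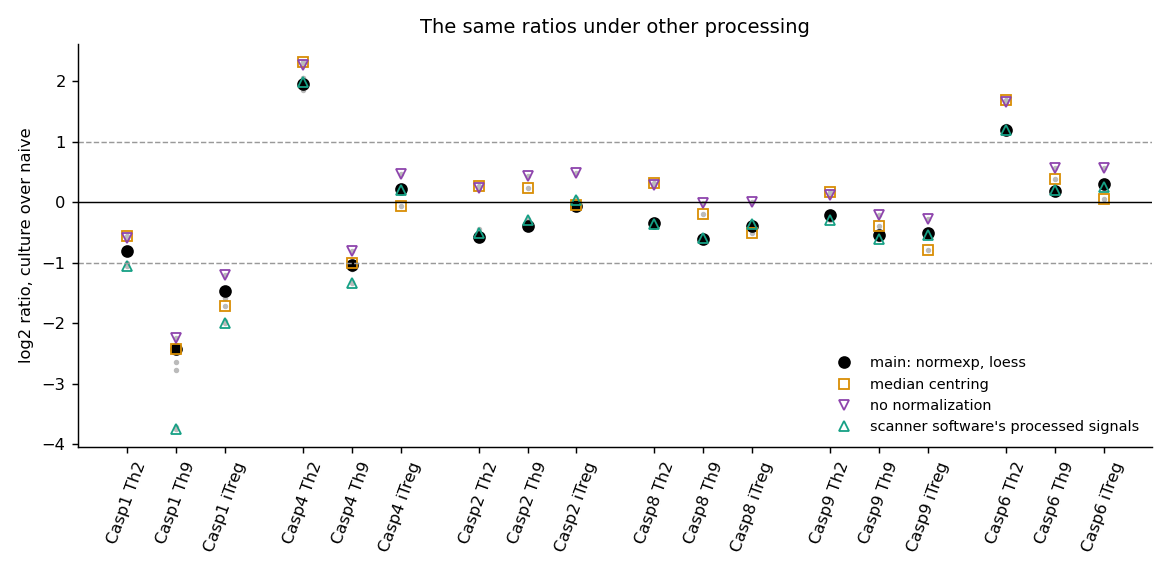
The same log2 ratios (vertical axis) for each caspase and culture under the main processing (black circles), median centring, no normalization and the scanner software's processed signals, with the other alternatives as small grey dots and dashed lines at 2-fold. The initiators change sign in Th2 with the scaling, and Casp1 in Th9 lies between -3.75 and -2.24.

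Between cultures, the inflammatory caspases and Casp6 were lower in Th9 than in Th2, and Casp4 was lower in iTreg than in Th2 as well. These values are differences of log2 ratios, with the errors of both spots combined. From Th2 to Th9, Casp4 differed by -2.98 ± 0.36, which is 7.91-fold lower in Th9, and its second probe by -2.74. Casp4 had the 5th lowest value of the 10452 genes measured on both arrays. Casp1 differed by -1.63 ± 0.47, or 3.09-fold, the 36th lowest value, and Casp6 by -1.02 ± 0.31, or 2.03-fold, the 137th lowest. Casp2 at 0.18 ± 0.29 and Casp8 at -0.26 ± 0.30 were within their errors, and Casp9 at -0.32 ± 0.30 barely beyond it. Hence 0 caspases were higher and 3 lower in Th9, where 1.28% of the measured genes were higher and 1.35% lower (0.976% and 2.31% with median centring). The value of Casp1 reached -2.72 under an alternative, and Casp6 was at -0.99 with the processed signals, just short of 2-fold.

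From Th2 to iTreg, Casp4 differed by -1.72 ± 0.34, which is 3.30-fold lower in iTreg, the 147th lowest value of 10533 genes. Its second probe differed by -1.56. Casp6 differed by -0.90 ± 0.31 and Casp1 by -0.66 ± 0.36, both beyond their errors and short of 2-fold. Casp2 was at 0.52 ± 0.29, Casp9 at -0.30 ± 0.29 and Casp8 at -0.04 ± 0.29. With median centring Casp2 was at -0.31, opposite in sign, in a comparison whose all-gene median that setting moved by -0.59. In all, 0 caspases were higher and 1 lower in iTreg, where 6.86% of measured genes were higher and 6.68% lower. With median centring 2.27% were higher and 26.8% lower, and 3 caspases were then at least 2-fold lower in iTreg.

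From Th9 to iTreg, Casp4 differed by 1.26 ± 0.32, which is 2.40-fold higher in iTreg, and its second probe by 1.18. Casp1 differed by 0.97 ± 0.50, just under 2-fold, and passed 2-fold under 5 of the processing alternatives. Casp2, Casp8, Casp6 and Casp9 were at 0.33 ± 0.29, 0.22 ± 0.30, 0.12 ± 0.29 and 0.02 ± 0.30, and all 4 were below 0 with median centring, at -0.28, -0.32, -0.32 and -0.39. The count was 1 higher and 0 lower in iTreg, where 6.8% of 10473 measured genes were higher and 6.29% lower. With median centring these were 3.06% and 16.9%, and Casp4 was at 0.95, so no caspase counted.

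Setting the red channels directly against each other, without the naive channel, gave like values. Casp4 then differed by -3.01 from Th2 to Th9, -1.75 from Th2 to iTreg and 1.26 from Th9 to iTreg. Casp1 gave -1.52, -0.60 and 0.91, and Casp6 -1.05, -0.90 and 0.14, in the same order of comparisons.

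**Figure D4:**
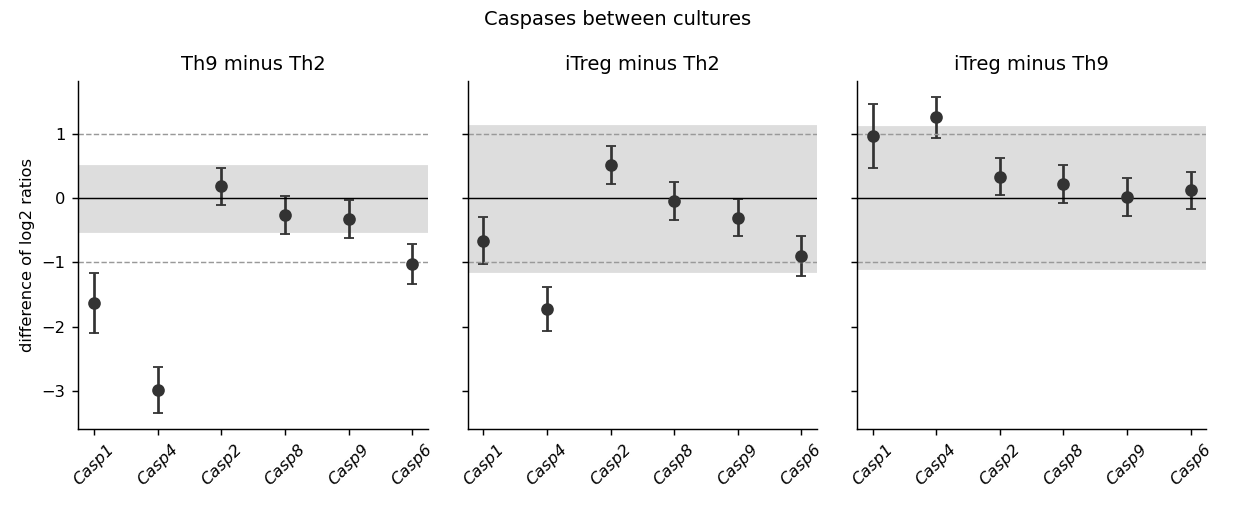
Difference of log2 ratios (vertical axis) for each caspase between Th9 and Th2, iTreg and Th2, and iTreg and Th9; bars are the combined scanner error of both spots, dashed lines mark 2-fold and the grey band holds the central range of all measured genes, from the 5th to the 95th percentile. Casp4 lies at -2.98, -1.72 and 1.26, outside the band in every panel.

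The order of levels, with the error of each step, was as follows. For Casp4 it ran from Th2 to iTreg (a step of 1.72), naive (0.22, against an error of 0.21) and Th9 (1.04). For Casp1 it ran from naive to Th2 (0.80), iTreg (0.66) and Th9 (0.97), and each step was beyond its error. For Casp6 it ran from Th2 to iTreg (0.90), Th9 (0.12) and naive (0.18), with the steps after iTreg each within error. Set directly against naive, iTreg was at 0.30 for Casp6, beyond its error of 0.21. For Casp2 naive and iTreg did not differ beyond error, and neither did Th9 and Th2, which came below them. For Casp8 naive was highest and the steps from Th2 to iTreg and from iTreg to Th9 were within error. For Casp9 the order was naive, Th2, iTreg and Th9, with the step from iTreg to Th9 within error.

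As a measure of how much a gene varied among the cultures, the distance between its highest and lowest of the 3 log2 ratios was taken. It was 2.98 for Casp4, and 0.609% of the 10343 genes measured on all 3 arrays had a larger one. It was 1.63 for Casp1, with 5.24% larger, and 1.02 for Casp6, with 17.1% larger. The initiators were near or below the median of 0.49: Casp2 had 0.52, Casp9 0.32 and Casp8 0.26.

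The genes whose 3 ratios came nearest to each caspase were found by the root mean square difference over the 3 arrays, among 10342 other genes. No gene lay within 0.2 of Casp4, and its nearest were Sema4f at 0.36, Tnfsf8 at 0.45 and Srgn at 0.60. Sema4f had log2 ratios of 1.32 in Th2, -0.99 in Th9 and 0.18 in iTreg, the same signs as Casp4. Near Casp1 were Gpr18 at 0.15, Abcb9 at 0.16 and Satb1 at 0.19, and they were the only 3 within 0.2. Casp6 had 10 genes that close, led by Kyat3, Zbtb38 and Igfbp6. The initiators had many, 574 for Casp2 (nearest Csad, Rnf115 and Srp14), 692 for Casp8 (Med1, Ivd and Rmc1) and 494 for Casp9 (Tymp, Nomo1 and Metap1d). Having 3 values per gene makes this a description of these arrays only.

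Casp12, of the inflammatory list, was not well above background in either channel on any array. In Th2, Th9 and iTreg, the 3 initiators had median ratios of -0.35, -0.54 and -0.39. The median of Casp1 and Casp4 was 0.57, -1.73 and -0.62, while over all measured genes it was -0.02, -0.01 and -0.02. Counts in the lists that follow are to be read beside the shares of all measured genes. Those were 14.8%, 15.5% and 10.2% at least 2-fold higher and 14.5%, 15.6% and 8.14% lower in Th2, Th9 and iTreg. Between cultures, 1.28% were higher and 1.35% lower in Th9 than in Th2. In iTreg 6.86% were higher and 6.68% lower than in Th2, and 6.8% and 6.29% than in Th9.

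Genes that act with the inflammatory caspases were sparse. Of 15 inflammasome and pyroptosis genes, 14 had a probe and 6, 6 and 8 were measured in Th2, Th9 and iTreg, with 1 at least 2-fold higher in each and 1, 1 and 2 lower. Their median ratios were -0.28, -0.41 and 0.07. Gsdmd, the gasdermin cut by both inflammatory caspases, was lower on all 3 arrays, with -1.19 ± 0.24, -2.75 ± 0.35 and -1.38 ± 0.25. In Th2 it was short of 2-fold with median centring, at -0.79, and without normalization, at -0.83. Ninj1, which ruptures the membrane of dying cells, was higher on all 3, with 1.91 ± 0.28, 2.02 ± 0.28 and 2.23 ± 0.30. Pycard, the inflammasome adaptor, was at -0.33, -0.85 and 0.10. Nlrc4, Il1a and Il1b were not well above background in any channel, and Nlrp3 and Il18 were so in naive cells only. Between cultures, 0 of 6 were higher and 1 lower in Th9 than in Th2, namely Gsdmd at -1.56. None of the 6 was 2-fold apart between iTreg and Th2, and 1 was higher in iTreg than in Th9, again Gsdmd, at 1.37.

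Guanylate-binding proteins, which are induced by interferon, help Casp4 reach bacterial lipopolysaccharide. Of 10 genes of these proteins and of interferon factors, 9, 8 and 10 were measured in Th2, Th9 and iTreg. Of them 4, 6 and 3 were at least 2-fold lower and 0 were higher, and the medians were -0.67, -1.92 and -0.64. Among all measured genes 14.5%, 15.6% and 8.14% were lower. With median centring 2, 6 and 3 were lower, where 7.4%, 11.4% and 12.0% of all measured genes were. Without normalization 2, 5 and 2 were lower, where 7.84%, 8.32% and 3.81% of all measured genes were. Gbp7 was not well above background in Th2 or Th9, with log2 ratios of -3.04 and -3.58 or lower against the dimmest detected signal, and was measured at -2.90 ± 0.48 in iTreg. Irf1, a transcription factor of interferon responses, was lower on all 3 arrays at -1.80, -2.14 and -2.23. With median centring it was at -0.76 in Th2, and its other probe, measured in iTreg only, was at 0.09 there. Irf2 had the highest mean ratio, from -0.12 in Th2 to -0.25 in iTreg. Between Th9 and Th2, 3 of 8 were lower in Th9, Gbp2 at -2.13, Gbp3 at -1.04 and Gbp5 at -1.04. Between Th9 and iTreg 5 of 8 were higher in iTreg, among them Gbp2 at 1.46 and Irgm1 at 2.20, and between Th2 and iTreg 1 of 9 was higher in iTreg, Irgm1 at 1.78. Among all measured genes 1.35% were lower in Th9 than in Th2, 6.8% higher in iTreg than in Th9 and 6.86% higher in iTreg than in Th2. From Th9 to iTreg the 5 became 3 with median centring and 4 without normalization, where 3.06% and 6.025% of measured genes were higher. Interferon gamma was blocked by antibody in all 3 cultures.

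Around Casp8, 12, 13 and 13 of 13 death receptor genes were measured, of which 2, 1 and 1 were at least 2-fold higher and 4, 4 and 2 lower in Th2, Th9 and iTreg. The medians were -0.69, -0.75 and -0.26. Among all measured genes 14.8%, 15.5% and 10.2% were higher and 14.5%, 15.6% and 8.14% lower. Without normalization the list counts were 3, 1 and 3 higher and 1, 0 and 0 lower. The all-gene shares were then 24.5%, 26.3% and 17.1% higher and 7.84%, 8.32% and 3.81% lower. Tnfrsf10b, the TRAIL receptor, had the highest mean ratio with 2.22, 1.96 and 0.91, and Tnfrsf25 the lowest, with -1.11, -1.38 and -1.12. With median centring Tnfrsf25 was at -0.19 in Th2 and -0.74 in Th9, and without normalization it was short of 2-fold in all 3 cultures. Tnfsf10, the gene of TRAIL, was at -1.92 in Th2, -0.19 in Th9 and 0.79 in iTreg. The adaptor Fadd was at -0.67, -0.75 and -0.04 and Fas at 0.54, 0.35 and 0.18. Cflar, the neighbour of Casp8, has 3 probes, and the spot of the brightest was dropped as an outlier in Th2. That probe was at 0.45 in Th9 and -0.26 in iTreg. The other 2 probes were at -0.03 and 0.08 in Th2, at -0.35 and -0.28 in Th9, opposite in sign to the brightest, and at -0.89 and -0.75 in iTreg. Between cultures, 1 of 12 was higher and 0 lower in Th9 than in Th2, 1 of 12 higher and 1 lower in iTreg than in Th2, and 0 of 13 higher and 1 lower in iTreg than in Th9. Tnfsf10 was the one higher in both comparisons with Th2, and Tnfrsf10b the one lower in iTreg in both.

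Necroptosis, the lytic death that Casp8 restrains, was represented by 4 genes, of which 1, 0 and 0 were higher and 1, 1 and 1 lower in Th2, Th9 and iTreg, with medians of 0.03, -0.20 and -0.25. Mlkl, whose product ruptures the membrane, was at 1.71 ± 0.29 in Th2, 0.39 ± 0.25 in Th9 and 0.06 ± 0.26 in iTreg. It was thus highest in Th2, as Casp4 and Casp6 were. Zbp1, a nucleic acid sensor, was lower on all 3 arrays at -2.83, -2.93 and -1.29 (-0.96 in iTreg without normalization). Mlkl was the 1 gene of 4 lower in Th9 than in Th2, at -1.32, and was lower in iTreg than in Th2 at -1.65. Zbp1 was the 1 higher in iTreg than in Th2, at 1.54 (0.91 with median centring), and than in Th9, at 1.63.

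For the partners of Casp9 and Casp2, the brightest probes of the 4 apoptosome and PIDDosome genes were all within 2-fold of naive in each culture, with medians of -0.01, 0.33 and 0.25. With median centring, no normalization, the processed signals or the deposited series values, 1 of the 4 was at least 2-fold higher in Th2. Pidd1 had the highest mean ratio with 0.96, 0.70 and 0.12, and Cycs, which encodes cytochrome c, the lowest with -0.17, -0.18 and -0.44. A second measured Cycs probe was at -1.01, -0.82 and -1.21, past 2-fold in Th2 and iTreg. Between cultures 1 of the 4 differed 2-fold, Cradd, which was higher in iTreg than in Th2 by 1.29. That call was lost with median centring, at 0.71, and was not shared by the other Cradd probe, which was at -0.05 in Th2 and 0.20 in iTreg.

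Among the inhibitors of caspases, 7, 6 and 7 of 7 IAP genes were measured, with 2, 1 and 1 at least 2-fold higher, 1, 1 and 0 lower, and medians of -0.66, -0.14 and -0.11, of which the first 2 were above 0 with median centring. The all-gene shares were 14.8%, 15.5% and 10.2% higher and 14.5%, 15.6% and 8.14% lower. Birc5, the mitotic IAP survivin, was higher on all 3 arrays at 2.74 ± 0.34, 2.94 ± 0.35 and 1.65 ± 0.26. Birc6 had the lowest mean ratio, with -1.32, -1.21 and -0.75. Naip2 was not well above background in Th9, at -1.67 or lower. Xiap, which inhibits Casp9 and the executioners, was at -0.66, -0.66 and -0.11. Between cultures no IAP was 2-fold higher, and Birc5 was the 1 lower in iTreg, by -1.10 from Th2 and -1.29 from Th9. Of 4 antagonists of IAPs, 0, 1 and 0 were higher and 1 lower in each culture, with medians of -0.08, 0.04 and -0.24. Septin4 was the highest of these, with 0.55, 1.32 and 0.08, but its other probe was at 0.19, 0.72 and 0.28, short of 2-fold in every culture. Xaf1 was lower on all 3 arrays, at -2.68, -3.42 and -1.41, but its other probe, measured in iTreg only, was at 0.31 there, opposite in sign. From Th2 to iTreg Xaf1 was higher by 1.27 (0.70 with median centring), and from Th9 to iTreg by 2.01. The brighter Septin4 probe was lower in iTreg than in Th9, at -1.24.

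Of 14 caspase substrate genes 13 were measured in every culture, of which 2, 2 and 0 were higher and 2, 5 and 1 lower, with medians of -0.48, -0.54 and -0.46. The all-gene shares were 14.8%, 15.5% and 10.2% higher and 14.5%, 15.6% and 8.14% lower. With median centring 3, 5 and 0 of the 13 were higher and 0, 3 and 2 lower. More of them were then higher than lower in Th9, and the list's Th2 median was 0.06. Vim, the cytoskeletal vimentin, had the highest mean ratio with 2.38, 2.59 and 0.56, and Panx1, a membrane channel opened by caspase cleavage, the lowest with -1.46, -1.53 and -0.87 (-0.64 and -0.94 in Th2 and Th9 with median centring). Lmna, the gene of lamin A, which Casp6 cuts, was at 1.75 ± 0.27 in Th2, 2.27 ± 0.31 in Th9 and -1.04 ± 0.25 in iTreg, the last at -0.75 without normalization. Between cultures, 0 of 13 were higher and 1 lower in Th9 than in Th2, 0 higher and 2 lower in iTreg than in Th2, and 2 higher and 2 lower in iTreg than in Th9. Lmna and Vim were the pair lower in iTreg in both.

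Over all 11 pathway lists, the 105 values that were at least 2-fold kept their sign under median centring, no normalization, the processed signals and the deposited series values, and 83, 80, 101 and 101 of them stayed past 2-fold. Centring and no normalization moved several list medians across 0, including that of the initiators in Th2, so list medians are to be read against the all-gene medians given above.

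**Figure D5:**
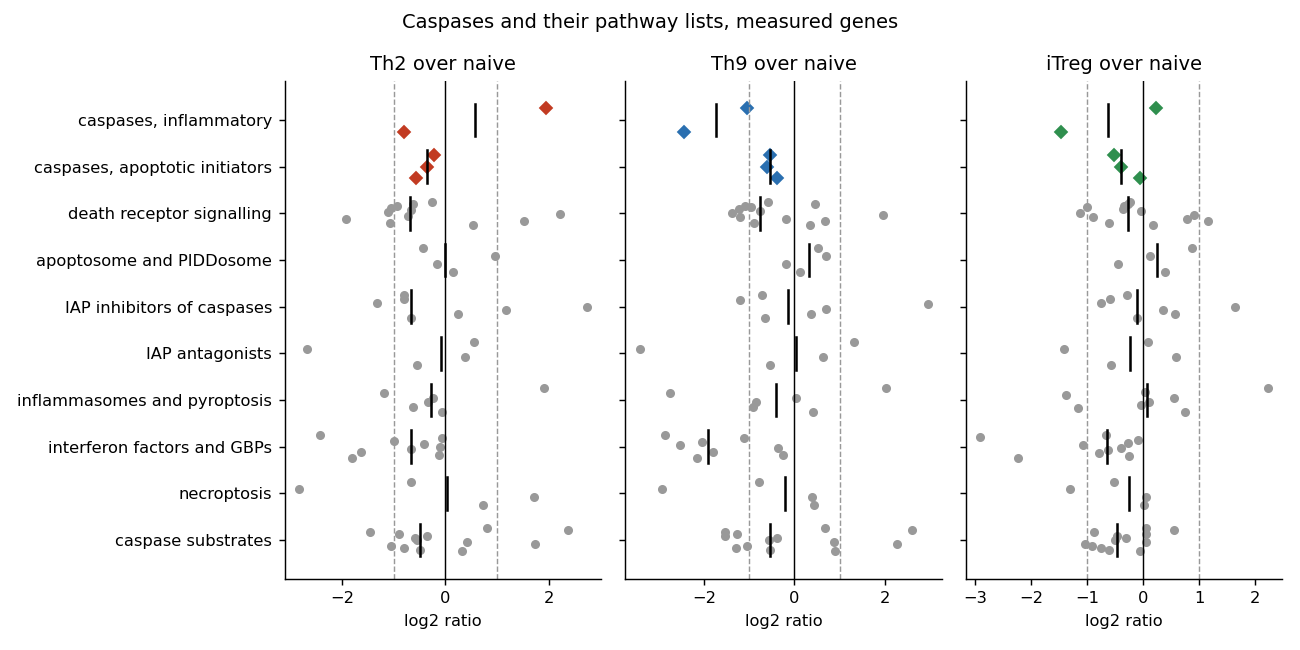
Log2 ratio to naive (horizontal axis) of each measured gene of the pathway lists in Th2, Th9 and iTreg; coloured diamonds are caspases of the set other than Casp6, whose list is not drawn, grey circles the other genes, black ticks the list medians and dashed lines 2-fold. The interferon list has its median at -1.92 in Th9, and Casp4 lies at 1.95 in Th2.

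Markers of other cells also differed between the cultures and naive cells, some lower and some higher. In bulk RNA fewer cells of a type cannot be told apart from less RNA per cell. The 9 T cell markers with a probe were measured everywhere, and 5, 8 and 2 of them were at least 2-fold lower in Th2, Th9 and iTreg. Many of these probes are bright, up to a naive level of 17.03 for Lck on the Th2 array. Marker values are given under the main normalization only, and those of other bright probes depended on the scaling. The second Cd4 probe was at 0.40, 0.43 and -0.01, against -0.62, -0.47 and -0.35 for the brighter one. Of 15 myeloid markers with a probe, the naive channel detected 13, 14 and 13 and the culture channel 9, 9 and 12 on the Th2, Th9 and iTreg arrays. Their summed signal was 56108 to 60643 in naive cells, and 32428, 33370 and 52588 in Th2, Th9 and iTreg. Csf3r and Itgam, at naive levels of 14.42 and 13.99 on the Th2 array, made up most of the naive sum. Tyrobp was at -2.91, -3.31 and -3.52, Fcer1g at -2.57, -2.95 and -3.50, and Lyz2 was above background in naive cells only, while Cd14 was not above background in any culture. Other myeloid markers were higher in the cultures: Cst3 was at 0.28, 0.45 and 0.19, and Lst1 at 0.24, 0.58 and 0.22, with 2.47, 2.83 and 2.24 for its second probe. Of 12 CD8 and NK markers 11 were above background in naive cells and 8, 7 and 8 in the cultures. Their summed signal was 83342 to 88268 in naive cells and 14746, 11092 and 17202 in the cultures. Gzma alone, at a naive level of 15.99 on the Th2 array, made up most of the naive sum. Cd8a was at background in all channels, and Ctsw was at -2.40 in Th2, 0.36 in Th9 and 1.33 in iTreg. Of 9 B cell markers, Ms4a1, Cd79a and Pax5 were at background everywhere and Cd79b was at 2.08, 2.03 and 1.83, with summed signals of 1218 to 1238 in naive cells and 2709 to 3046 in the cultures. Of 7 erythroid and platelet markers only Hba-a1 was measured, at -2.54, -2.81 and -2.72. Casp1, which myeloid cells and NK cells also transcribe, was lower in every culture, as both summed signals were though not each marker, and their part in its ratios was not tested. Casp4 was 3.85-fold higher in Th2 and 2.05-fold lower in Th9. Both sums were below naive in both of these cultures, and the part of such cells in the Casp4 ratios was not tested either. Each naive sum rested mainly on the bright probes named above.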

How the data were processed

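Scanner files of 3 arrays gave, per spot, median signals of both dyes and of the local background as intensity, deposited by the authors. Per the file headers these came from Agilent Feature Extraction 11.0.1.1, where the submitters' processing notes name 9.3.2.1. Per the file headers the same files hold background-subtracted, dye-normalized processed signals, their log10 ratio of red over green, its error, and, for each spot, the p-value that its error model assigns within 1 array. The deposited p-value was not used, since it holds no spread between cultures. The authors' deposited series values are on a log2 scale: they equalled log2 of red over green processed signal, shifted by a constant of 0.0562, 0.0206 and 0.0365 in Th2, Th9 and iTreg (within 0.001 for 99.3% to 99.4% of probes), with column medians of 0.14, 0.26 and 0.28. Their centring is not stated.

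Background was corrected with normexp (offset 50) and each array normalized by loess in limma 3.58.1 (R 4.3.3), with control and outlier spots weighted 0. Outlier spots (255 to 292 of 43020 per array) were dropped, no spot was saturated, and spots of a probe were averaged. A log2 ratio is red over green. Channel levels were then scaled with Aquantile. Errors are those of the software's own log10 ratio, turned to log2, and were not recomputed after normexp and loess. A value counts as measured when all its spots passed the software's above-background flag in both channels, which 53.0% to 54.1% of naive spots and 48.9% to 51.0% of culture spots were. Where 1 channel was not, a bound was taken from the lowest signal detected in it. The number of arrays, 1 per culture, limits the precision. The 187 probes spotted many times had a median SD of 0.0449 to 0.0494 within an array. Probes were named through their accession in RefSeq's gene table (26055 of 39429 probes matched), and a gene's brightest probe was used. The background correction and loess were checked on simulated arrays in which few genes changed, as many up as down. Such arrays cannot show how the scaling acts when many genes change, as they did here.

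The members and lists were chosen with earlier results of these data known. Named genes are all members with every probe, for each list those of the highest and lowest mean ratio, those with a bound past 2-fold and those past 2-fold on all 3 arrays, and the 3 genes nearest to each member. Fadd, Fas, Tnfsf10, Xiap, Pycard, Lmna, the extra marker genes, the between-culture examples and the undetected genes were named after their values were seen. Protein sequence features were not analysed here, and a few list genes are not reported here. Alternatives changed the background correction, normalization, probe choice, filters, threshold and source of values, and left out each array.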

Additional observations from a re-analysis of the deposited data

Results flagged for a closer look

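Casp4 had opposite signs against naive cells in different cultures, each beyond the scanner's error of the spot. It was above naive in Th2, at a log2 ratio of 1.95, and below naive in Th9, at -1.04, a difference of 2.98. It was also above naive in iTreg, at 0.22, and below in Th9, a difference of 1.26. With 1 array per culture neither difference was tested. Under median centring the iTreg value was -0.06, so the second contrast in sign was not kept, whereas the first was kept under every alternative.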

How the results depend on the processing

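Each array is a single culture, so the software's error is the only error available, and signals near background, such as Casp1 in Th9, limit the size of a ratio. Of 342 alternative values of single caspases, 295 stayed within the scanner error of the main value, 47 moved by more, and 0 of those past 2-fold reversed. Some of these alternatives could not move a value. Every member was measured everywhere, so keeping dim spots changed none, and averaging probes could change only Casp4. The deposited series values repeat the processed signals up to a constant per array. The count of 295 therefore overstates how many separate checks were passed. The same fixed or repeated values are among the 95 alternatives of the 10 member values that were at least 2-fold. All 95 kept the sign and 92 stayed past 2-fold. The exceptions were Casp4 in Th9 at -0.82 without normalization, Casp6 between Th9 and Th2 at -0.99 with the processed signals, and Casp4 between iTreg and Th9 at 0.95 with median centring. Counts that changed by more than 1.5-fold, or from or to 0, are listed next. Smaller moves are left out, such as Casp1 passing 2-fold in Th2 with the processed signals and the deposited series values. In Th9 against naive the count of 2 became 1 without normalization. Between iTreg and Th2 the count of 1 became 3 with median centring, 2 without normalization and 3 at a 1.5-fold threshold. Between iTreg and Th9 the count of 1 became 0 with median centring, and 2 without background subtraction, with offset 16, with the processed signals, without normalization, with the deposited series values and at 1.5-fold. On all 3 arrays the count of 0 became 1, which was Casp1, with the processed signals, the deposited series values and at 1.5-fold, and leaving out 1 array gave 0 to 1, the 1 coming without the Th2 array. The cause of these moves was not tested, apart from the threshold and the left-out array, which change the count by construction. No paired analysis was possible because each culture has 1 array.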
